A study of Homo sapiens with 60 samples.

Results

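The comparison described here sets SW1783 cells given the ethanol extract of Saposhnikoviae Radix at its high dose against cells given the vehicle alone. Its members are the 3 libraries whose titles name that extract and dose and the 3 libraries titled as vehicle, 6 of the 60 libraries of the series, and every gene expressed in the series was tested. SW1783 is a human astrocytoma line, grown without added carbon dioxide in L-15 medium with serum. All groups were exposed for 24 h. The root extract was given at 500 µg/mL (high), 100 µg/mL (medium) and 20 µg/mL (low), with 3 libraries at each dose. The vehicle was dimethyl sulfoxide, at 0.1% in the sample records and 2% in the text of the series, a difference that the labels do not resolve. For comparison, the ethanol extract of Menthae Herba was used at 500 and 20 µg/mL, again with 3 libraries each. Its 3 libraries at 100 µg/mL entered the fit of all libraries and a further fit described below, but were not compared. A wortmannin control and hot-water extracts named in the series text were not analysed here. The labels do not say whether replicates came from separate cultures, so the spread between libraries may be technical. P-values rest on a spread estimated over all libraries of a fit. In the main fit these were the 60 libraries of the series, not the 6 compared alone.

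Saposhnikoviae Radix is the dried root of Saposhnikovia divaricata, a plant of the carrot family whose root holds chromones and coumarins. Several gene programmes that cells use to meet plant compounds and other chemical stress can be read from messenger RNA. NRF2 is a transcription factor that is held back by KEAP1 and, once released by electrophiles or oxidants, raises enzymes of glutathione, thioredoxin and haem handling. SREBP factors drive fatty acid and cholesterol synthesis, PPAR factors drive fat storage and burning, and the unfolded protein response sets the level of chaperones in the endoplasmic reticulum. In astrocytoma cells, cytokines such as IL-8 and LIF are released under the control of NF-kB and related factors.

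The high-dose libraries held 29343024, 24371155 and 36439544 expected counts for replicates 1, 2 and 3, and the vehicle libraries between 25186495 and 26477745. Vehicle libraries have names beginning with D1, while every library of the root extract and of Menthae Herba has a name beginning with 12, so what separates these library sets and what the extract did cannot be told apart in a comparison with vehicle. High replicate 2 carried relatively more of its counts on short transcripts. Its length slope, the change in log2 expression against the vehicle mean for each doubling of median transcript length, was -0.303, against -0.00574 and -0.00249 in high replicates 1 and 3. Low replicates 2 and 3 (-0.13 and -0.216) and Menthae Herba high replicate 3 (-0.227) were tilted the same way, whereas the medium-dose slopes lay between -0.0255 and -0.00356. Mitochondrially encoded genes took 10.1% to 10.3% of counts in vehicle, 6.99%, 10.2% and 7.21% in the high dose, and 6.87% to 8.14% in the medium dose. Results that rest on high replicate 2 are given with and without it.

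**Figure D1:**
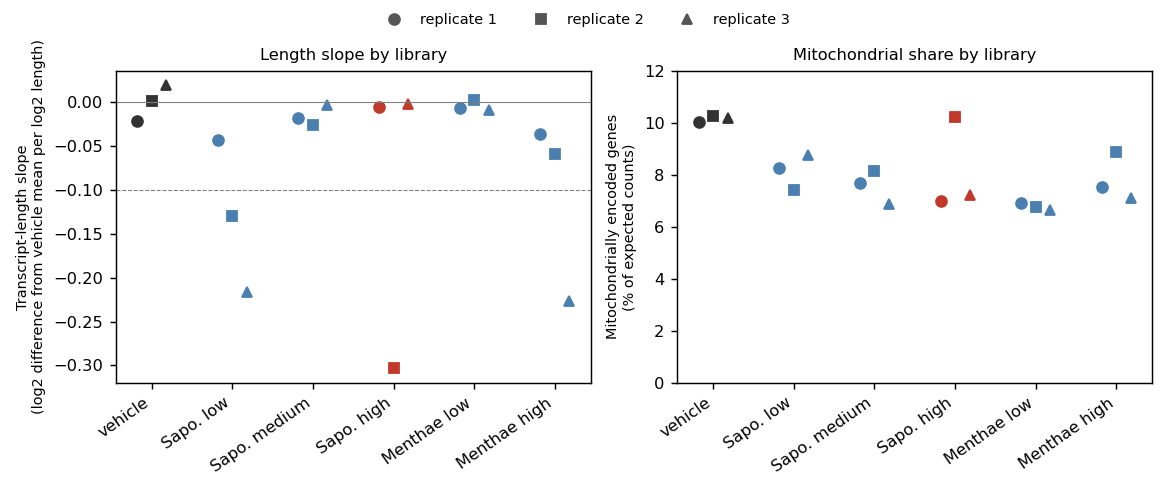
Length slope (left, log2 difference from the vehicle mean per log2 of transcript length, dashed line at the limit of -0.1) and share of expected counts on mitochondrially encoded genes (right, percent) in each library, with symbols for replicates 1, 2 and 3. High replicate 2 has the lowest slope shown, -0.303, and its mitochondrial share of 10.2% lies with the vehicle libraries while the other high-dose libraries are at 6.99% and 7.21%.

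Of 18 astrocyte and glioma markers, 10 had a mean above 1 CPM (counts scaled to the size of the library) over the 6 libraries, led by VIM, CD44, CHI3L1 and EGFR, and AQP4 and FABP7 were at 0 in all 6. GFAP, the classic astrocyte filament, was between 0.0341 and 0.227 CPM, and VIM and CD44, the highest of the list, are also markers of mesenchymal cells. The leukocyte markers CD3E, TYROBP and P2RY12 were at 0 in all 6 libraries. The sum of 8 fibroblast and mesenchyme markers was 4438 to 4670 CPM in vehicle and 2859 to 3727 at the high dose. COL1A1 and THY1 led that list. COL1A1 alone was at 3685 to 3881 CPM in vehicle and 2981, 2092 and 2846 in high replicates 1, 2 and 3. High replicates 1 and 3 were both below vehicle in COL1A1, THY1 and PDGFRB, but not in the other markers. The part of these markers in the results was not tested.

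At the high dose, messenger RNA of the cytokines LIF and CXCL8 (interleukin 8), of the activin subunit INHBA and of TXNIP, which inhibits thioredoxin and glucose uptake, was higher than in vehicle. HSPA5, the main chaperone of the endoplasmic reticulum, SREBF1, the SREBP gene that drives fatty acid synthesis, and DUSP10, a phosphatase acting on stress-activated kinases, were lower. Over all 18601 genes tested, 1405 passed an adjusted p of 0.05 in edgeR's quasi-likelihood test (7.55%), 951 of them higher (5.11%) and 454 lower (2.44%). Without high replicate 2 the count was 254 (1.37%), 150 higher (0.806%) and 104 lower (0.559%). A fit of the 6 compared libraries alone called 0 genes with edgeR (928 at an unadjusted p under 0.05), and DESeq2 with all libraries called 2087. The 164 genes called with all libraries and without high replicate 2 made up 11.7% of the first list and 64.6% of the second, and none of them changed sign. The count also moved with every other library: it was 4212 without high replicate 1, 4340 without high replicate 3, and 406, 272 and 211 without vehicle replicates 1, 2 and 3. Genes called higher with all libraries had a median transcript length of 854 bases and those called lower 1299.5, against 1050 for all genes tested. The genes named next passed with all libraries and without high replicate 2, with no overlap between the 3 high-dose and 3 vehicle libraries, unless stated. For those genes the separation of the groups was a condition of naming and is not a further result. Of all 18601 genes tested, 4173 had no overlap between the high-dose and vehicle libraries. All levels are CPM, given for replicates 1, 2 and 3 in that order, and fold changes are log2.

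Among secreted signals, LIF (ENSG00000128342, chr22:30240447-30246851, minus strand) stood at 23.2, 20.7 and 21.9 in vehicle and 38.7, 31.2 and 38.9 at the high dose. LIF is an interleukin 6 family cytokine that activates STAT3. Its groups were well apart, and the log2 fold change was 0.73 ± 0.08 (SE), adjusted p 1.24e-07, and 0.82, adjusted p 1.45e-09, without high replicate 2. CXCL8 (ENSG00000169429, chr4:73740506-73743716, plus strand), the neutrophil chemokine, was low in every library, at 4.01, 2.96 and 3.30 in vehicle and 8.03, 4.74 and 8.96 at the high dose. All high-dose values lay above all vehicle values, with replicate 2 the nearest, and the fold change was 1.09 ± 0.21 (SE), adjusted p 0.00236. INHBA (ENSG00000122641, chr7:41667168-41705834, minus strand), the activin A subunit, was at 70.9, 71 and 79.9 and then 108, 193 and 110.0. High replicate 2 held the top value and the fold change fell from 0.89 (adjusted p 0.000821) to 0.56 (adjusted p 0.0345) without it. Of 21 tested genes of the NF-kB inflammatory list, CXCL1, CXCL8, LIF and NFKBIA were called higher and TNFAIP2 lower, with a median of 0.25 against 0.01 over all genes. Without high replicate 2, CXCL8, LIF and NFKBIA were still called. In a fit of untilted libraries, described further on, LIF and INHBA were also called higher than vehicle at the medium dose. The same held at the Menthae Herba low dose. Between the high dose and each of these groups LIF was called higher in that fit, and INHBA was not called. NFKBIA, the inhibitor of NF-kB that NF-kB itself induces, was at 34.4, 34.9 and 34.7 in vehicle and 44.3, 49.4 and 47.2 at the high dose. Its medium-dose values of 44.4, 43.1 and 46.5 and Menthae Herba low-dose values of 45.2, 43.6 and 45.5 overlapped the high dose at its lowest library only, above vehicle throughout.

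Redox genes gave a mixed picture against vehicle. TXNIP (ENSG00000265972, chr1:145992435-145996600, minus strand) was at 9.64, 10.6 and 10.7 in vehicle and 18.6, 12.1 and 20.8 at the high dose. High replicates 1 and 3 were far above every vehicle library and replicate 2 just above. The fold change was 0.74 ± 0.17 (SE), adjusted p 0.00784, and 0.93, adjusted p 0.000867, without replicate 2. GCLM (ENSG00000023909, chr1:93885205-93909456, minus strand), the modifier subunit of the enzyme that starts glutathione synthesis, rose from 73.9, 79.8 and 79.5 to 107, 117 and 119. All high-dose libraries were above all vehicle libraries, with a fold change of 0.55 ± 0.12 (SE), adjusted p 0.00735. TXNRD1 (ENSG00000198431, chr12:104215779-104350305, plus strand), thioredoxin reductase, was at 282, 289.8 and 291 and 411, 314 and 421, and here replicate 2 was the lowest of the high-dose libraries. Its fold change was 0.41 ± 0.09 (SE), adjusted p 0.00784, and 0.53, adjusted p 0.000735, without replicate 2. Of 18 tested NRF2 genes of glutathione and thioredoxin, TXN, NQO1, GCLM and TXNRD1 were called higher, and the list's median was 0.37 against 0.01 for all genes. Without high replicate 2, GCLM and TXNRD1 were called and the median was 0.26. TXN, thioredoxin itself, is one that rested on that library, at 172, 162 and 135 in vehicle and 179.9, 757 and 197 at the high dose. HMOX1, the haem-degrading enzyme, was at 61.4, 58.1 and 58.5 and 105, 97.1 and 104, with no overlap, but did not pass in this fit (log2 fold change 0.78 ± 0.33 (SE), adjusted p 0.119). A fit of untilted libraries, described further on, called 1633 of all 18601 genes higher at the high dose. Over all genes it called 1691 higher at the medium dose and 1412 at the Menthae Herba low dose. Of the 18 glutathione and thioredoxin genes it called 11 higher at the high dose. It called 5 higher at the medium dose and 6 at the Menthae Herba low dose, against the same vehicle libraries. GCLM, TXNRD1, GCLC and SLC7A11 were among them in each group. Of these, GCLM and TXNRD1 were also called higher at the high dose than at the Menthae Herba low dose.

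Several chaperones of the endoplasmic reticulum were lower. HSPA5 (ENSG00000044574, chr9:125234853-125241330, minus strand) stood at 3430.1, 3538 and 3485 in vehicle and 2275, 1433 and 2215 at the high dose. Every high-dose library was below every vehicle library and replicate 2 was the lowest, with a fold change of -0.82 ± 0.10 (SE), adjusted p 1.48e-06. The medium and low doses lay between, at 2755, 2818 and 2677 and 3057, 2947 and 2816. HERPUD1, which helps clear misfolded proteins from that compartment, was at 85.8, 82.9 and 79.2 and 56.5, 62.5 and 55, and PDIA4, a disulfide isomerase there, at 752, 779.5 and 739 and 582, 373 and 543. Their fold changes were -0.51 (adjusted p 0.00752) and -0.60 (adjusted p 7.30e-05), and both also passed without replicate 2. Of the 18 listed chaperones 6 were called lower, the others being HYOU1, HSP90B1 and PDIA3, and 3 without high replicate 2. The list's median went from -0.36 to -0.16 when that library was left out, against 0.01 and -0.0041 over all genes. Chaperones were lower in other groups of the library set too: in a fit of untilted libraries, described further on, 8 were called lower at the high dose, 5 at the medium dose and 5 at the Menthae Herba low dose, with HSPA5, HERPUD1, PDIA4 and HYOU1 among them in each group. Over all 18601 genes that fit called 1569, 1579 and 1366 lower in these groups, in the same order. HSPA5 and HERPUD1 were called lower at the high dose than at the Menthae Herba low dose in that fit.

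SREBF1 and desaturase genes of fatty acid synthesis were lower too. SREBF1 (ENSG00000072310, chr17:17810399-17837002, minus strand) was at 64.1, 64.3 and 60.2 in vehicle, 54, 52.6 and 50.9 at the low dose, 45.5, 49.8 and 49.3 at the medium dose and 37.7, 32.2 and 37.2 at the high dose. No high-dose value reached the lowest value of any other of these groups, and the fold change against vehicle was -0.82 ± 0.13 (SE), adjusted p 0.000125. Of 12 tested fatty acid synthesis genes, SREBF1, the desaturase SCD and the desaturase FADS1 were called lower, and without high replicate 2 SREBF1, FADS1 and FADS2. SCD was at 261, 292 and 282 in vehicle and 187, 67.6 and 203 at the high dose. It was below every vehicle library in all 3, but its adjusted p went from 0.0372 to 0.353 without the lowest library, replicate 2. In the fit of untilted libraries, SREBF1, SCD, FADS2, FASN and FADS1 were called lower at the high dose, and ME1 and ELOVL5 higher. The same 5 genes were called lower at the medium dose, and ELOVL5 higher. At the Menthae Herba low dose SREBF1, FASN and FADS2 were called lower and ME1 higher. Over all genes that fit called 1569, 1579 and 1366 lower at the high, medium and Menthae Herba low doses. SREBF1 and SCD were called lower at the high dose than at the medium dose and at the Menthae Herba low dose. Among 24 cholesterol synthesis and uptake genes, SREBF2 and MSMO1 were called lower with all libraries and DHCR7 without replicate 2. The median of that list was -0.13 with all libraries and -0.15 without replicate 2.

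Other genes that fell were single members of several programmes. DUSP10 was at 18.7, 18.9 and 18.9 in vehicle and 11.8, 7.72 and 11.7 at the high dose, a log2 fold change of -0.85 ± 0.11 (SE), adjusted p 2.36e-06. PADI2, which converts arginine in proteins to citrulline, went from 9.35, 9.01 and 9.45 to 4.66, 3.26 and 6.16 (log2 fold change -0.97 ± 0.18 (SE), adjusted p 0.00161). PLAT, the tissue plasminogen activator that opens the clot-dissolving cascade, was at 262, 248 and 262 and 183, 148 and 188. In these genes all 3 high-dose libraries were below all 3 vehicle libraries, the condition set above for the genes named. EGLN3, an oxygen-sensing prolyl hydroxylase, fell by 0.63 (adjusted p 0.000299), LGR6, an R-spondin receptor, by 0.72 (adjusted p 0.0159) and CBX2, a Polycomb subunit, by 0.64 (adjusted p 0.00126). EGLN3 was also called lower than vehicle at the low dose with all libraries and at the medium dose in the fit of untilted libraries. It was not called between the high dose and the low dose with all libraries, nor between the high and medium doses in that fit. The widest fold change, -2.81 ± 0.58, belonged to PEDS1-UBE2V1, a readthrough of adjacent genes. Its reads can be assigned to its parent genes or to the readthrough, and its value is uncertain. The same caution holds for HSPA1B and GTF2H2B, which have near-identical copies elsewhere in the genome.

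Several named genes also stood apart from vehicle at other doses of the root or at the low dose of Menthae Herba, which share the library set. TAF1D (ENSG00000166012, chr11:93729948-93784391, minus strand), a subunit of the RNA polymerase I selectivity factor, was at 65.8, 65.1 and 60.9 in vehicle, 95.9, 108 and 96.2 at the high dose, 99.5, 93.3 and 103 at the medium dose and 83.9, 92.8 and 93.2 at the Menthae Herba low dose. No treated group overlapped vehicle. The high and medium doses overlapped, and the Menthae Herba low dose lay just below both. PCLAF, a factor that binds PCNA at replication forks, was at 38.3, 34.2 and 35.8 in vehicle, 62.7, 71.2 and 63.5 at the high dose and 58.3, 59.8 and 66.7 at the Menthae Herba low dose. NDUFB1, a small complex I subunit, was at 20.9, 20.9 and 17.3 in vehicle and 39, 41.6 and 41.9 at the Menthae Herba low dose, beside 38.7, 68.9 and 36.2 at the high dose. The splicing factor U2AF1, which has a near-identical copy in this genome build, the nucleolar protein GAR1 and the long noncoding host gene SNHG1, which was picked after its values were seen, had high-dose log2 fold changes of 0.65, 0.78 and 0.52 and medium-dose ones of 0.75, 0.66 and 0.49. Both contrasts share the vehicle libraries. Among falls, HSPA1B, a heat shock chaperone, was at 127, 125 and 124 in vehicle, 87, 66 and 87.1 at the high dose and 93.3, 86.6 and 87.2 at the Menthae Herba low dose. For these genes the extract and the library set cannot be told apart. Mitochondrially encoded genes were of this kind: 3 of 13 were called lower with all libraries and 0 by edgeR without high replicate 2 (9 at an unadjusted p under 0.05), while the median went from -0.31 to -0.75. In the fit of untilted libraries 9 were lower at the high dose, against 1569 of all 18601 genes. At the Menthae Herba low dose 11 were lower, against 1366 of all genes. The shares of counts on mitochondrially encoded genes at the other doses and in Menthae Herba were likewise below vehicle.

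In other gene groups most calls of the fit to all libraries were lost without high replicate 2. Of 28 ribosomal protein genes 10 were called higher with all libraries, with a median of 0.72. Without that library 0 were called by edgeR (2 at an unadjusted p under 0.05) and the median was 0.01. RPS14, a protein of the small subunit, was at 386, 338 and 322 in vehicle and 383, 1762 and 407 at the high dose. Only replicate 2 stood clear of vehicle. Of 27 proteasome subunits 7 were called higher, among them PSMB5, a catalytic subunit, at 101, 90.6 and 84.8 in vehicle and 107, 368 and 115 at the high dose. Its replicate 2 was far above vehicle and replicates 1 and 3 slightly above. Without replicate 2 PSMC6 and PSMD12 were called and the proteasome median went from 0.57 to 0.20. Of 28 nuclear-encoded respiratory chain genes 7 were called higher, and 1, NDUFB1, without replicate 2. In a fit of the untilted libraries of set 12 and vehicle, described further on, which also lacks replicate 2, 5 ribosomal protein genes were called higher and 4 lower, 17 proteasome subunits higher, PSMB5 included, and 5 respiratory chain genes higher and 1 lower. At the Menthae Herba low dose that fit called 6 ribosomal protein genes higher and 2 lower, 9 proteasome subunits higher and 7 respiratory chain genes higher, against the same vehicle libraries. Over all genes that fit called 1633 higher and 1569 lower at the high dose and 1412 and 1366 at the Menthae Herba low dose. MALAT1, a long noncoding RNA kept in the nucleus, was at 979.6, 789.6 and 953 in vehicle and 1302, 5899 and 1267 at the high dose. Low replicates 2 and 3, the other tilted libraries of this root, held 3478 and 4521, against 1537 in low replicate 1. Of 20 immediate early genes 5 were called lower (EGR1, EGR3, FOS, NR4A1 and KLF4), and 0 by edgeR without replicate 2 (6 at an unadjusted p under 0.05). The fit of untilted libraries called EGR3, JUND, NR4A1 and JUNB lower at the high dose. It called 5 lower at the medium dose and 5 at the Menthae Herba low dose. Over all genes it called 1569, 1579 and 1366 lower at these doses, in the order given. EGR1, a growth-signal transcription factor, was at 148, 165 and 167 in vehicle, 88, 31 and 60.3 at the high dose and 94.5, 57 and 45.5 at the medium dose, all treated libraries being lower.

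**Figure D2:**
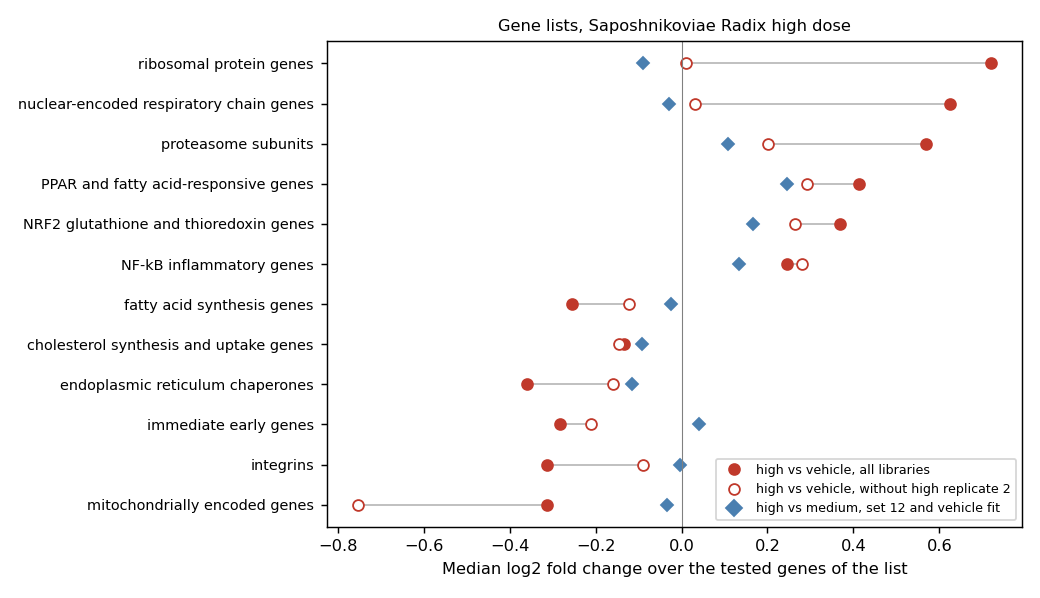
Median log2 fold change over the tested genes of 12 lists, for high dose against vehicle with all libraries (filled circles) and without high replicate 2 (open circles), and for high against medium dose in the fit of untilted libraries described further on (diamonds). The medians of ribosomal protein genes and respiratory chain genes move from 0.72 and 0.62 to 0.01 and 0.03 when replicate 2 is left out, while that of NF-kB genes is 0.25 and 0.28.

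Comparisons inside the library set set the high dose against libraries that share its set. With all libraries, 29 genes were called between the high and the low dose (0.156%), 14 higher (0.0753%) and 15 lower (0.0806%) at the high dose. Leaving out high replicates 1, 2 and 3 in turn gave 70, 230 and 42 genes, and leaving out low replicates 1, 2 and 3 gave 39, 12 and 7. The largest rises by the naming rule were TXNIP, CPT1A, PSMG3-AS1, MIR100HG, TSHZ2 and LIF. CPT1A, which carries fatty acids into mitochondria for burning, was at 38.8, 37.7 and 36.5 at the low dose and 58, 72.9 and 57.2 at the high dose, a log2 difference of 0.74 ± 0.10 (SE, adjusted p 5.83e-05). No low-dose library reached the high dose. The falls were CMC4, PLAT, HSPA5, SREBF1, CLDN11 and TRA2A. PLAT differed by -0.58 (adjusted p 0.00111), HSPA5 by -0.57 (adjusted p 0.00261), SREBF1 by -0.56 (adjusted p 0.0462) and LIF by 0.43 (adjusted p 0.00395). When the tilted libraries (high replicate 2 and low replicates 2 and 3) were all left out, edgeR called 0 genes, with a single low-dose library remaining. Between the high and the medium dose edgeR called 0 genes with all libraries (3465 at an unadjusted p under 0.05), and DESeq2 called 37. EdgeR called 2500, 1 and 3023 without high replicates 1, 2 and 3. Against the Menthae Herba low dose 17 genes were called (0.0914%), 1 without high replicate 2, 3197 and 3726 without high replicates 1 and 3, and 3, 5 and 3 without the Menthae Herba replicates in order. Fits of the compared libraries alone called 0 genes with edgeR for high against low (220 at an unadjusted p under 0.05) and against the Menthae Herba low dose (302). Set against vehicle, 94 genes were called at the medium dose (0.505%) and 1899 at the low dose (10.2%), with 2 of its 3 libraries tilted. Without vehicle replicates 1, 2 or 3 the medium-dose count was 34, 21 and 24, and the low-dose count was 5499, 778 and 87 without low replicates 1, 2 and 3 and 964, 554 and 298 without the vehicle replicates in the same order.

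A further fit, chosen after the data were seen, took the libraries of set 12 and vehicle and left out the 4 with a length slope below -0.1. The high dose was then represented by replicates 1 and 3, the low dose by replicate 1, and 17 libraries remained. Against vehicle it called 3202 genes at the high dose (17.2%), 3270 at the medium dose (17.6%) and 2778 at the Menthae Herba low dose (14.9%), contrasts that share the vehicle libraries. The high-dose count was 1613 without high replicate 1 and 945 without high replicate 3, and the Menthae Herba low-dose count was 1785 without vehicle replicate 2 and 1379 without its own replicate 3. Between the high and medium doses of the root it called 34 genes (0.183%), 22 higher (0.118%) and 12 lower (0.0645%) at the high dose. The count was 15 without high replicate 1, 9 without high replicate 3 and 20 without medium replicate 1 or 2. Against the Menthae Herba low dose the high dose had 154 called genes (0.828%), 35 without high replicate 1, 22 without high replicate 3 and 80, 95 and 100 without the Menthae Herba low replicates in order. The 34 genes are described next by role, with high replicate 2 shown although it took no part in the fit.

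Targets of NRF2 were among the rises. HMOX1 (ENSG00000100292, chr22:35380361-35394214, plus strand) was at 67.2, 59 and 63.2 at the medium dose and 105, 97.1 and 104 at the high dose, with 65.8, 62.8 and 74.2 at the low dose and 48, 53 and 54.8 at the Menthae Herba low dose. All 3 high-dose libraries, the tilted one included, stood above every library of vehicle, the lower doses and the Menthae Herba low dose, and the log2 difference from the medium dose was 0.72 ± 0.06 (SE), adjusted p 2.78e-07. AKR1C1, an aldo-keto reductase whose reads can be shared with near-identical paralogs, was at 18.2, 18.6 and 19.5 at the medium dose and 30, 57.6 and 30 at the high dose, a difference of 0.68 ± 0.07 (SE), adjusted p 4.36e-06. GCLM was at 91.7, 87 and 91.9 at the medium dose and 107, 117 and 119 at the high dose (0.32 ± 0.06 (SE), adjusted p 0.0228). Its groups did not overlap. TXNRD1 was at 330.3, 352 and 359 at the medium dose and 411, 314 and 421 at the high dose, so that high replicates 1 and 3 were above and replicate 2 below the medium dose (0.26 ± 0.05 (SE), adjusted p 0.0249). PIR, an iron-binding protein, and AIFM2, which regenerates coenzyme Q at the plasma membrane, rose by 0.43 (adjusted p 0.012) and 0.48 (adjusted p 0.0269). In the NRF2 glutathione and thioredoxin list 2 of 18 tested genes were called between the doses, both higher, and the list's median was 0.17, with the median of all genes at 0. NQO1, a quinone reductase, was at 172, 171 and 172 at the medium dose and 193, 321 and 211 at the high dose and did not pass (0.24 ± 0.05 (SE), adjusted p 0.0762).

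The promoters of 4 of the 34 genes are shown because they hold the letters of an element type tied to the gene or its family. These are the antioxidant response element bound by NRF2, the E-box element through which glucose acts on TXNIP, and the metal response element of metallothioneins. A single start was searched for each gene, for TXNRD1 the most upstream start of the gene. Whether a match is the element described for that gene was not tested. RefSeq windows of GRCh38.p14 (250 bases before to 50 after each start) were found for 26 of the 34 genes, and 27305 windows were searched in all, on both strands. The letters searched were TGACNNNGC, CACGNG and TGCNCNC. TGACNNNGC occurred in 13.6% of all windows, and in those of GCLM, MLLT11, AIFM2, TXNRD1 and PIR among 18 rises and of MT2A and MT1X among 8 falls. Matches are letters in a window and not evidence of binding. Capitals mark the matches. For TXNRD1 (chr12:104215529-104215828, plus strand), TGACNNNGC matched 2 times, and 1.14% of windows hold 2 or more. For GCLM (chr1:93909381-93909680, minus strand) it matched 1 time.
TXNRD1: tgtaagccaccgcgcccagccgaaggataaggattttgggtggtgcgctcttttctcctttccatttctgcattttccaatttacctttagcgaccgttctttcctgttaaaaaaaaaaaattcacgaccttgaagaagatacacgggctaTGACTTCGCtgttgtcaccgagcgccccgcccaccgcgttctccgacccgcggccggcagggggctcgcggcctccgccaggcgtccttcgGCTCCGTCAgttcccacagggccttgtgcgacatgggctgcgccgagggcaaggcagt
GCLM: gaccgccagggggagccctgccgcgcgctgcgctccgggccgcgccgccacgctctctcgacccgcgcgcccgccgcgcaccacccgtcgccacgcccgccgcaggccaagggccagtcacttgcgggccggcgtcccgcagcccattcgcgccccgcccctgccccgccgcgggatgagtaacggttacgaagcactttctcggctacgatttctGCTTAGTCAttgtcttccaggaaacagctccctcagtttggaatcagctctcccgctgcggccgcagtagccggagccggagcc
For TXNIP (chr1:145996530-145996829, minus strand), CACGNG matched 4 times, and 0.513% of windows hold 4 or more.
TXNIP: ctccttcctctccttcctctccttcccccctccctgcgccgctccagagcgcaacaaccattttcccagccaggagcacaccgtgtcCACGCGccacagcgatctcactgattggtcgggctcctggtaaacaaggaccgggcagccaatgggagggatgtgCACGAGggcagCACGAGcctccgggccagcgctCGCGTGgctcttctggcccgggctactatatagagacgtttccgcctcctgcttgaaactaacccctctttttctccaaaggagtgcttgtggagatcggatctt
For MT1X (chr16:56682220-56682519, plus strand), TGCNCNC matched 4 times, and 2.78% of windows hold 4 or more.
MT1X: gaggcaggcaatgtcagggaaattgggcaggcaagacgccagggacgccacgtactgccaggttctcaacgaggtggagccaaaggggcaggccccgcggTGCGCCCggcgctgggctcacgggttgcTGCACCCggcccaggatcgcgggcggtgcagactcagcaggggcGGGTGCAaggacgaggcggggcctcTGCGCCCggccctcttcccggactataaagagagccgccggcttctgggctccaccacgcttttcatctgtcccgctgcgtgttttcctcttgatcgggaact
CACGNG and TGCNCNC alone are common, in 30.4% and 55.2% of windows.

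TXNIP, whose promoter is shown above, was at 9.38, 10.8 and 10.9 at the medium dose and 18.6, 12.1 and 20.8 at the high dose, and at 11.2, 11.2 and 12.2 at the Menthae Herba low dose. High replicates 1 and 3 stood clear of all these, replicate 2 only of the medium dose, and the difference between doses was 0.93 ± 0.09 (SE), adjusted p 2.46e-06. Lipid genes moved in opposing directions. ANGPTL4, a secreted inhibitor of lipoprotein lipase and a PPAR target, was at 9.70, 12.5 and 10.3 at the medium dose and 21.2, 52.7 and 22.6 at the high dose, beside 16.4, 11.8 and 13.6 in vehicle. The high dose lay above and the medium dose mostly below vehicle (1.02 ± 0.11 (SE), adjusted p 0.000119). PLIN2, the coat protein of lipid droplets, was at 52.6, 49.4 and 49.9 at the medium dose and 72.6, 64.7 and 74 at the high dose (0.54 ± 0.06 (SE), adjusted p 7.55e-06), and CPT1A differed by 0.38 (adjusted p 0.00579). These were the 3 of 9 tested PPAR and fatty acid-responsive genes called. SREBF1, SCD and INSIG1, which retains SREBP in the endoplasmic reticulum, were lower at the high than the medium dose by log2 differences of -0.36, -0.31 and -0.34 (adjusted p 0.00753, 0.0326 and 0.00753). INSIG1 was at 138, 151 and 139 in vehicle and 157, 162 and 169 at the medium dose and 127, 64.3 and 130.1 at the high dose. Its medium-dose values were above vehicle, so part of that difference lies in the medium dose.

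CXCL8 was at 5.19, 3.87 and 4.99 at the medium dose and 8.03, 4.74 and 8.96 at the high dose and LIF at 31.1, 30.7 and 33.5 at the medium dose and 38.7, 31.2 and 38.9 at the high dose. For both, high replicates 1 and 3 were above every medium-dose library, and the differences were 0.86 ± 0.13 (SE), adjusted p 0.00173 for CXCL8 and 0.29 ± 0.06 (SE), adjusted p 0.0326 for LIF. PHLDA1, a gene induced by ERK signalling, rose by 0.39 (adjusted p 0.0191). B4GALNT1, which makes the gangliosides GM2 and GD2, was at 26.9, 26.2 and 24.3 in vehicle, 23.4, 22.9 and 21.4 at the low dose, 28.1, 29 and 27 at the medium dose and 41.2, 35.1 and 42.8 at the high dose. Its 3 high-dose libraries were above all others named, and the difference from the medium dose was 0.59 ± 0.06 (SE), adjusted p 4.36e-06. MIR100HG, the host transcript of a microRNA cluster that includes miR-100, was at 50.4, 49.2 and 49.7 at the medium dose and 64.2, 44 and 64 at the high dose (0.37 ± 0.06 (SE), adjusted p 0.00156).

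The metallothioneins MT1E, MT1X and MT2A, small proteins that bind zinc and copper, were lower at the high than at the medium dose in the untilted libraries. MT2A was at 131, 126 and 119 in vehicle and 196, 202 and 196 at the medium dose and 112, 321 and 139 at the high dose. High replicate 2 held the highest of these values and replicates 1 and 3 the lowest of the treated ones, and MT1E and MT1X shared that order. The differences from the medium dose were -0.99, -0.75 and -0.66 (adjusted p 0.00579, 0.000708 and 0.023). Against vehicle in the same fit, MT2A had a log2 fold change of 0.66 at the medium dose (adjusted p 0.000491) and 0.00 at the high dose. These genes have short transcripts and close paralogs, and with all libraries MT2A did not pass between the high dose and vehicle (adjusted p 0.209). Further falls were PLAT (-0.30 ± 0.05 (SE), adjusted p 0.00753), the Wnt pathway inhibitor DACT1, the retinal reductase DHRS3, the keratin KRT18, the receptor GPRC5A and FAM13B. SERPINB3, a protease inhibitor called higher, was at 4.43, 4.71 and 3.98 in vehicle, 2.43, 2.97 and 2.99 at the medium dose and 4.76, 3.93 and 4.82 at the high dose. Here the medium dose was low and the high dose overlapped vehicle, and the same holds for PPP1R10, a regulator of protein phosphatase 1, in high replicates 1 and 3. The other rises were IMPA2, MLLT11, UCHL1, KCNAB2 and ANXA10, with differences from 0.26 to 0.52.

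**Figure D3:**
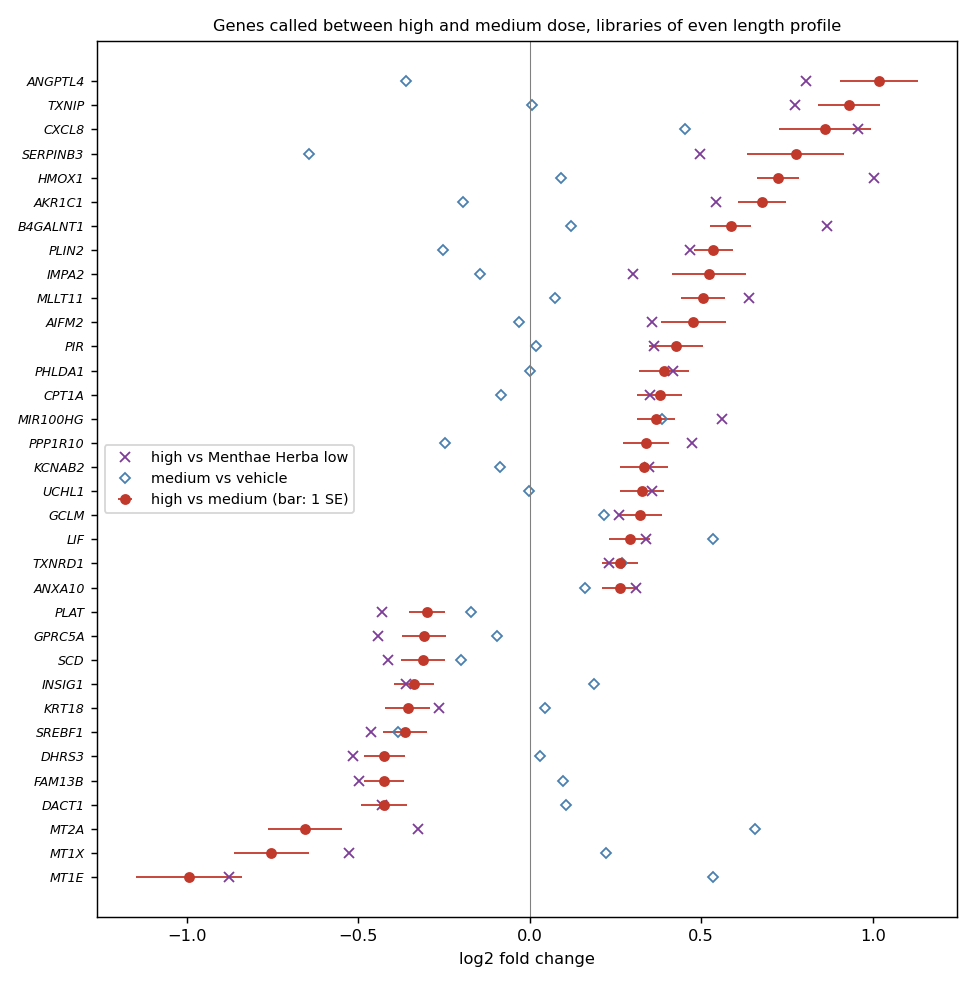
Log2 fold changes of the 34 genes called between the high and medium doses in the fit of untilted libraries: high against medium (circles, bars of 1 SE), high against the Menthae Herba low dose (crosses) and medium against vehicle (diamonds). ANGPTL4 has the highest and MT1E the lowest difference between doses, 1.02 and -0.99. The crosses share the high-dose libraries, and the diamonds the medium-dose libraries, with the circles.

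**Figure D4:**
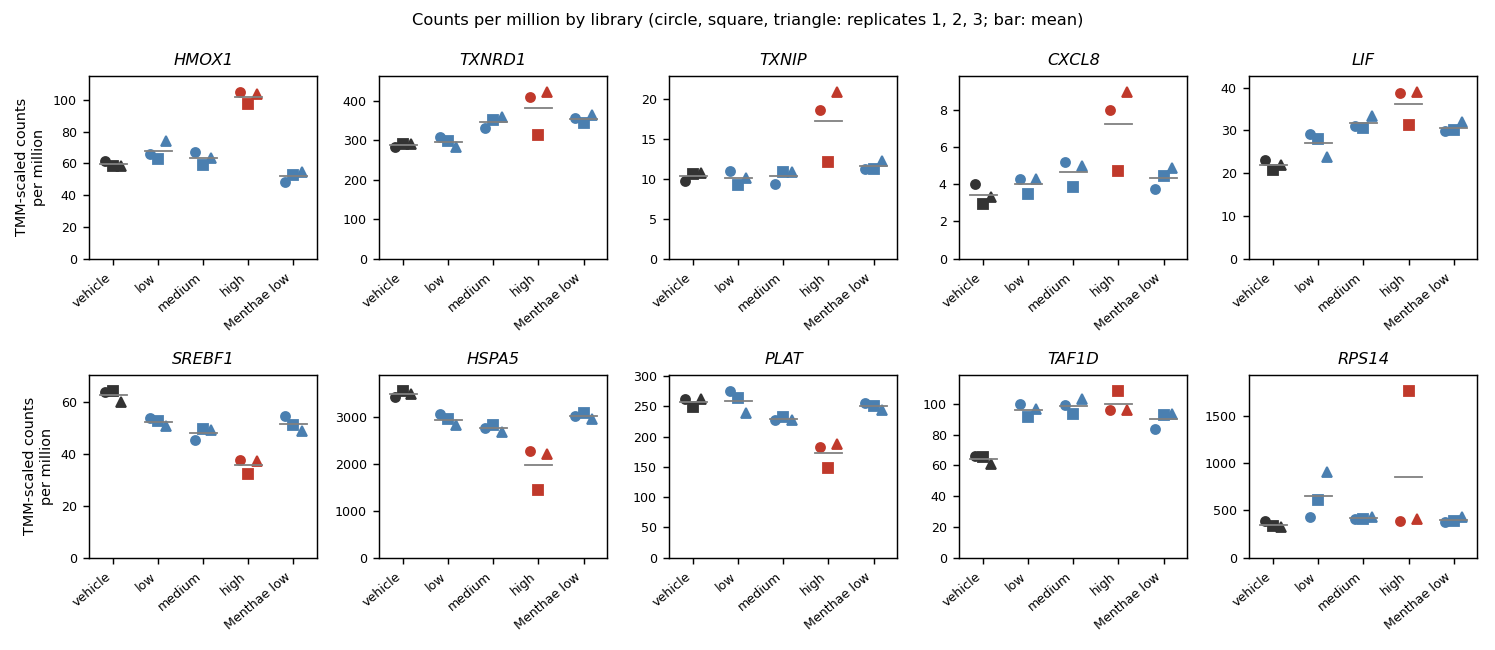
CPM of 10 genes in each library of vehicle, the 3 doses of the root and the Menthae Herba low dose, with bars at group means and linear axes from 0. HMOX1 stands apart at the high dose in all 3 replicates, TXNRD1, TXNIP and CXCL8 mainly in replicates 1 and 3, TAF1D lies above vehicle in all treated groups, and RPS14 is highest in high replicate 2 at 1762.

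The root extract differed from the ethanol extract of Menthae Herba at the same 500 µg/mL in 2433 genes (13.1%), 1446 higher (7.77%) and 987 lower (5.31%) in the root, in a comparison that shares the library set. Each group held a tilted library, and a fit of these 6 libraries alone called 0 genes with edgeR (1145 at an unadjusted p under 0.05) while DESeq2 with all libraries called 2679. PLIN2 was at 228, 235 and 255 with Menthae Herba, above all 3 values with the root given earlier, and the log2 difference, root minus Menthae Herba, was -1.77 (adjusted p 4.57e-09). ANGPTL4 was at 128, 109.9 and 184 with Menthae Herba, a difference of -2.13 (adjusted p 0.000661). HMOX1 was at 115, 126 and 148, and the difference of -0.35 did not pass (adjusted p 0.571). These values all lay above those with the root, and in the fit of untilted libraries HMOX1 was called lower with the root. In the other direction, INHBA was at 77.6, 59.5 and 63.9 with Menthae Herba, below every root library (1.03, adjusted p 4.59e-06). LGR6, B4GALNT1 and MIR100HG were also higher with the root, by 1.57, 0.69 and 0.66 (adjusted p 1.24e-07, 0.0196 and 2.47e-06). PLAT was lower still with Menthae Herba, at 137, 128 and 124, and the difference was 0.42 (adjusted p 0.00133).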

How the data were processed

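RNA of SW1783 cells was sequenced in 60 libraries. The authors deposited 1 table of expected counts per Ensembl gene, which are estimates and need not be whole. The submitters' processing notes name Trim Galore 0.6.5, FastQC 0.11.9, STAR 2.7.3a, RSEM 1.3.3 and the genome build GRCh38. Expected counts of the deposited table were rounded and tested with edgeR 4.0.16 (TMM scaling, filterByExpr with a minimum count of 10 and total of 15, robust quasi-likelihood, 60 libraries in 1 fit with a mean for each group, 37 residual degrees of freedom, two-sided). Okbyeongpung-san, with 1 library at each dose, entered that fit as 1 group. P-values were adjusted by Benjamini-Hochberg over the 18601 genes tested, and calls were made at 0.05. Positions and median transcript lengths come from GENCODE 29, and 41209 of 60675 identifiers had a symbol. Totals ran from 19031101 to 37686960 expected counts. SE is the fold change divided by the root of F. Levels are CPM (counts scaled to library size), for markers from the library total and otherwise with the TMM factor.

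Named genes were the 12 largest rises and falls called with all libraries and without high replicate 2 (mean log2 CPM of at least 2, no overlap), up to 4 called members of each of 50 lists, and the 6 largest rises and falls between the high and low doses. The 34 genes of the fit without tilted libraries were chosen after their values were seen, as were the elements searched in promoters. Members and lists were chosen with earlier results of these data known. Alternatives were DESeq2 1.42.0, RLE scaling, no filter, the compared groups alone, a replicate block, the length slope as a covariate and leaving out libraries. The scripts were tested on simulated data. Some members of the lists are not reported here by name, so called genes named for a list may not be all of those called.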

Additional observations from a re-analysis of the deposited data

How the results depend on the processing

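High against vehicle (1405 genes called) gave 222 with no low-count filter, 0 from the 6 compared libraries alone (928 at an unadjusted p under 0.05; DESeq2 with all libraries gave 2087), 284 without the 3 tilted libraries of the root, 3202 in set 12 and vehicle without tilted libraries, 150 in that set with them, and 211 to 4340 when 1 library was left out. Medium against vehicle (94) gave 12, 3538, 3270 and 21 for no filter, compared libraries alone, and set 12 without and with tilted libraries, 2204 with a length covariate, 288 with DESeq2 and 21 to 34 with 1 library left out. Low against vehicle (1899) gave 489, 1 and 360 for no filter, compared libraries alone and set 12 with tilted libraries, 19 without the 3 tilted libraries and 87 to 5499 with 1 left out. High against low (29) gave 1 with no filter, 0 from the compared libraries (220 unadjusted), 0 without the 3 tilted libraries (747 unadjusted), 242 and 7 in set 12 without and with tilted libraries, 1010 with the length covariate, 119 with DESeq2 and 7 to 230 with 1 left out. High against medium (0) gave 13 with the length covariate, 1 without the 3 tilted libraries, 37 with DESeq2, 34 and 1 in set 12 without and with tilted libraries, and 0 to 3023 with 1 left out. Against Menthae Herba high (2433) the counts were 1427 with no filter, 0 from the compared libraries (1145 unadjusted, and 2679 with DESeq2), 6468 with the length covariate, 4986 and 1336 in set 12 without and with tilted libraries, and 1733 to 3410 with 1 left out. Against Menthae Herba low (17) they were 3 with no filter, 0 from the compared libraries (302 unadjusted), 75 with the covariate, 156 with DESeq2, 154 and 2 in set 12 without and with tilted libraries, and 1 to 3726 with 1 left out. Within the fit without tilted libraries, leaving out 1 library gave 945 to 3294 genes for high against vehicle, 2196 to 3412 for medium against vehicle, 1379 to 2901 for Menthae Herba low against vehicle, 9 to 36 for high against medium, 23 to 439 for high against low, 22 to 163 for high against Menthae Herba low and 3391 to 5079 for high against Menthae Herba high. The cause of these shifts was not tested. No named gene called in high against vehicle or high against low changed sign under the alternatives run.

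The replicate numbers were not taken to pair the samples, since in none of the 7 comparisons did all 3 same-numbered pairs correlate above 0.1 in their deviations: the values were -0.183, -0.0869 and 0.131 for high and vehicle, 0.649, 0.00795 and -0.655 for high and low, and 0.0215, 0.139 and 0.159 for high and medium, where 0.0934 was the highest between different numbers. The high, low and Menthae Herba high groups hold tilted libraries, which shift the deviations from the group mean, so this check cannot decide pairing for them. With the replicate block, high against vehicle gave 1260 calls, medium against vehicle 118, low against vehicle 1819, high against low 27, high against medium 0, high against Menthae Herba high 2381 and high against Menthae Herba low 8.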
